A study of Mus musculus with 6 samples.

Results

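The 200 best measured long non-coding RNAs (lncRNAs) of sinusoidal endothelial cells (SECs) from fibrotic mouse livers were compared between endothelial RBPj knock-out and control mice. They were chosen by summing the counts of the 6 libraries for each gene that the deposited table types as lncRNA and keeping the 200 highest sums, out of 12116 lncRNA genes and 41799 genes in all. The choice therefore used read depth over both groups together, and the levels below are a description. Just inside the limit, LOC105244012, Gm10069, Gm34997, Gm32604 and C920021L13Rik had 647 to 654 summed counts. Just outside it, 4933439C10Rik, LOC105245359, LOC105245570, LOC105246317 and LOC105243241 had 632 to 642. All 200 members passed the filter on low counts, whereas 1228 of the 12116 lncRNA genes passed and 5837 had no count in any library.

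The series held 3 libraries from RBPj knock-out SECs and 3 from control SECs, all from livers of male mice. RBPj is the DNA-binding partner of cleaved Notch receptors at their target genes. Both groups carry the same protocol on their labels. Tamoxifen was injected daily for 7 days at 2 mg per 20 g, starting at 4 to 6 weeks of age, and CCl4, a toxin that scars the liver, was then injected at 0.6 µl per g (15% in olive oil) 2 times a week for 6 weeks, with an age of 12 to 14 weeks on the labels. Neither the Cre line that drove the endothelial deletion nor the genotype of the control mice is named there. The strain reads C57BL/6 for the controls and knock-out library 1, C57BL/7 for knock-out library 2 and C57BL/8 for knock-out library 3. Whether C57BL/7 and C57BL/8 are true strain names or errors of entry is not settled by the labels. The labels do not say that replicates are separate animals, so each p-value reflects only the spread among these samples, which may be technical.

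lncRNAs are transcripts with no long open reading frame that carries a known protein. Some stay in the nucleus and take part in its organisation, some are hosts from whose introns small nucleolar RNAs (snoRNAs) or microRNAs are cut, and many start next to, or on the strand opposite, a protein-coding gene. In such antisense pairs a library that does not record strand cannot assign a read from a shared exon to either gene. Whether strand was used in counting these libraries is not stated.

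Total counts were 10503026 to 12326770 in knock-out libraries and 10372195 to 11268228 in control libraries. The members held 0.711% to 0.735% of the counts in knock-out libraries and 0.716% to 0.778% in control libraries. Rbpj had 128, 99 and 154 counts in knock-out libraries and 174, 172 and 173 in control libraries (log2 fold change −0.64 ± 0.19, SE; adjusted p = 0.187, edgeR), lower in every knock-out library but short of the threshold of 0.05. Counts are given per gene and not per exon, so the deletion itself was not tested here. The 9 sinusoidal endothelial markers (Stab1, Stab2, Lyve1, Clec4g, Oit3, Fcgr2b, Kdr, Pecam1 and Cdh5) summed to 17015 to 20856 CPM (counts after scaling to equal, TMM-adjusted library sizes) in knock-out libraries and 11464 to 16420 CPM in control libraries, and none was at 0. Without Stab2, left out after its values were seen, these sums overlapped, at 11985 to 15779 CPM in knock-out libraries and 9443 to 13577 CPM in control libraries. Of the 9 markers, 7 had positive and 2 negative log2 fold changes, and 0 were called. Stab2 (0.86), Cdh5 (0.50) and Pecam1 (0.30) were higher in every knock-out library than in any control library, beside 13.2% of all tested genes. Clec4g was lower in every knock-out library (log2 fold change −1.03, adjusted p = 0.149, edgeR), and Lyve1 gave −0.73 with overlapping groups. Markers of other cells were present too. Of 8 stellate cell markers, 7 were lower in every knock-out library than in any control library, beside 11.7% of all tested genes, and 0 were called. Their summed level was 379 to 1471 CPM in knock-out libraries and 1976 to 5610 CPM in control libraries, over all 8. The 8 macrophage markers summed to 422 to 1464 CPM in knock-out libraries and 2029 to 3486 CPM in control libraries. Without Lyz2, also left out after its values were seen, the macrophage sums overlapped, at 282 to 1037 CPM in knock-out libraries and 759.9 to 2594 CPM in control libraries. The 4 cycling cell markers summed to 235 to 327 CPM in knock-out libraries and 61.7 to 153 CPM in control libraries. Neutrophil markers summed to 413 to 2950 CPM in knock-out libraries and 204 to 13405 CPM in control libraries, the highest being control library 1, and Mpo was at 0 in all 6. The 6 hepatocyte markers summed to 187 to 2126 CPM in knock-out libraries and 399 to 1814 CPM in control libraries, the 5 cholangiocyte markers to 287 to 921 CPM in knock-out libraries and 420.2 to 950.2 CPM in control libraries, and the 5 lymphocyte markers to 10.9 to 14.3 CPM in knock-out libraries and 8.64 to 23.6 CPM in control libraries. In bulk samples, fewer cells of a type and less RNA per cell cannot be told apart. The part of these cell types in the results below was not tested.

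Sequences of annotated promoters are shown for the members that the results turn on, from RefSeq on build GRCm38.p6 (103 members matched by gene ID and chromosome). The first is the promoter of Gm30938, the member with the largest fold change, from 250 bases before to 50 bases after its annotated start (chr17:87474519-87474818, minus strand). The second is the stretch from 100 bases before to 50 bases after the start of AW112010, the member with no overlapping gene that was lowest in knock-out SECs after Gm30938 among those whose groups did not overlap (chr19:11050517-11050666, minus strand). Capitals mark GTGGGAA, or TTCCCAC on the other strand, the core that RBPJ is known to bind.
Gm30938: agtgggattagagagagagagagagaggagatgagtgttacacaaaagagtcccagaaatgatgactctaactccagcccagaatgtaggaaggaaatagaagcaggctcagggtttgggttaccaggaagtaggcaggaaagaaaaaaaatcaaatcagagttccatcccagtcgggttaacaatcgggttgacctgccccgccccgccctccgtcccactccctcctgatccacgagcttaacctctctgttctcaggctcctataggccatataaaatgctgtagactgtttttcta
AW112010: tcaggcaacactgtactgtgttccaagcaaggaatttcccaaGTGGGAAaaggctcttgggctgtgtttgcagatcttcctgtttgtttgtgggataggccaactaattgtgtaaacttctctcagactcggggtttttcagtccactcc
The core was absent from the Gm30938 window and present in that of AW112010. It was found, on either strand, in 6.38% of 32851 promoter windows of 300 bases and in 6.62% of the 136 windows of members, so its presence in a window is a description of the letters and not a binding site.

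Of the 200 members, 1 was lower in knock-out SECs at an adjusted p below 0.05 and 0 were higher (edgeR quasi-likelihood test, Benjamini-Hochberg adjustment over 15404 tested genes). Among all tested genes, 0.0909% were called lower and 0.104% higher. At an unadjusted p below 0.05, 24 members were higher, beside 9.39% of all tested genes, and 22 were lower, beside 8.13%. With DESeq2, 7 members were higher and 9 lower (3.52% and 2.63% of all genes), and with limma-voom 8 were higher and 3 lower (1.89% and 1.29%). The median log2 fold change of the members was 0.011, against −0.029 over all tested genes, and 152 of the 200 lay within 0.5 of 0. In 52 members (26.0%) the 3 knock-out libraries did not overlap the 3 control libraries, 30 with knock-out higher and 22 with knock-out lower, beside 13.2% and 11.7% of all tested genes. Some shares, such as 4.0% of members higher with limma-voom and 4.5% lower with DESeq2, lay above those of all genes. Others, 3.5% higher with DESeq2 and 1.5% lower with limma-voom, lay near them. The members were chosen for high counts, which all tested genes were not, so the shares are not like for like. The members were not tested as a group.

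**Figure D1:**
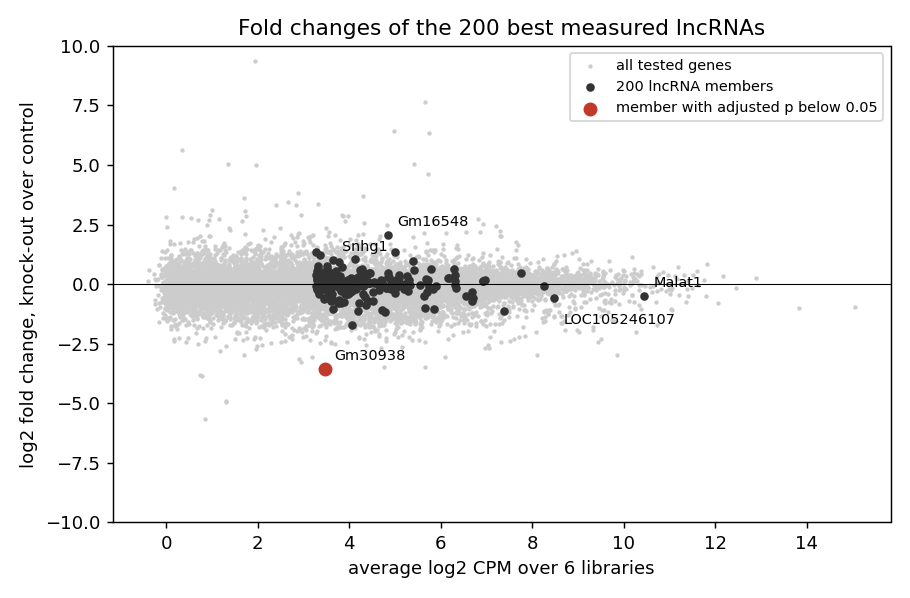
Log2 fold change (knock-out over control) against the average log2 CPM over 6 libraries, for all 15404 tested genes (grey) and the 200 lncRNA members (dark). Gm30938, at −3.55, is the 1 member with an adjusted p below 0.05 (red), and most members lie within 0.5 of 0.

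Gm30938 was the member that fell in knock-out SECs. It is an uncharacterised lncRNA gene on the minus strand (chr17:87463354-87474568, mm10) that overlaps no other gene of the table. It had 22, 15 and 25 counts in knock-out libraries and 221, 240 and 180 counts in control libraries. The groups lay far apart, with the highest knock-out library well below the lowest control library. The level was 1.72 ± 0.429 CPM in knock-out SECs and 20.3 ± 3.25 CPM in control SECs (SD, n = 3 each), a log2 fold change of −3.55 ± 0.25 (SE) or 11.7-fold lower (adjusted p = 0.0354, edgeR). When each library was left out in turn the log2 fold change lay between −3.67 and −3.36. The call held without knock-out library 1 (adjusted p = 0.0400) and was lost without control library 1 (0.0552), control library 2 (0.135), control library 3 (0.102), knock-out library 2 (0.166) or knock-out library 3 (0.144). In these 5 fits no gene of the table was called. The adjusted p was 1.71e-25 with DESeq2 and 0.0101 with limma-voom, and over all alternatives it lay between 1.71e-25 and 0.166.

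Of 10 genes within 190 kb on either side of Gm30938, itself included, 7 were tested and only Gm30938 was called. The other 6 tested genes all had negative log2 fold changes, between −0.85 (Ttc7) and −0.27 (Epcam). The window was set after its genes were seen, so their shared sign and the count that follows are a description only. In 3 of these 6 genes the groups did not overlap, beside 11.7% of all tested genes with knock-out lower. These were Ttc7 and the lncRNAs LOC102632541 and 4833418N02Rik, which both overlap Ttc7 in position on the opposite strand. Reads may be shared between them, so they are not 3 separate loci. Ttc7 had 39.3, 20.9 and 23.4 CPM in knock-out libraries and 60.6, 41.4 and 48.6 CPM in control libraries (−0.85 ± 0.28, adjusted p = 0.212). The lncRNA LOC102632541 had 1.06 to 1.24 CPM in knock-out libraries and 1.49 to 2.37 CPM in control libraries, and the lncRNA 4833418N02Rik 1.06 to 1.54 CPM in knock-out libraries and 1.61 to 1.92 CPM in control libraries. The nearest protein-coding gene was Calm2, which encodes the calcium sensor calmodulin, 16.4 kb away on the same strand. Calm2 had 1488, 2621 and 3183 counts in knock-out libraries and 2690, 3284 and 2414 in control libraries, overlapping groups with a log2 fold change of −0.41 ± 0.23 (adjusted p = 0.410). Gm30794, a lncRNA 3.88 kb away, was too low to be tested, with 1 count in each knock-out library and 6, 8 and 4 counts in the control libraries. Its pooled counts, 3 in knock-out and 18 in control libraries, run in the direction of Gm30938, the knock-out libraries being under the floor of 3 counts a library and the control libraries above it. On the other side, the lncRNA Gm30984 (40.9 kb) had 2, 9 and 18 counts in knock-out libraries and 10, 11 and 12 in control libraries. Epcam, a surface protein of bile duct and other epithelial cells, gave a log2 fold change of −0.27 ± 0.30.

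**Figure D2:**
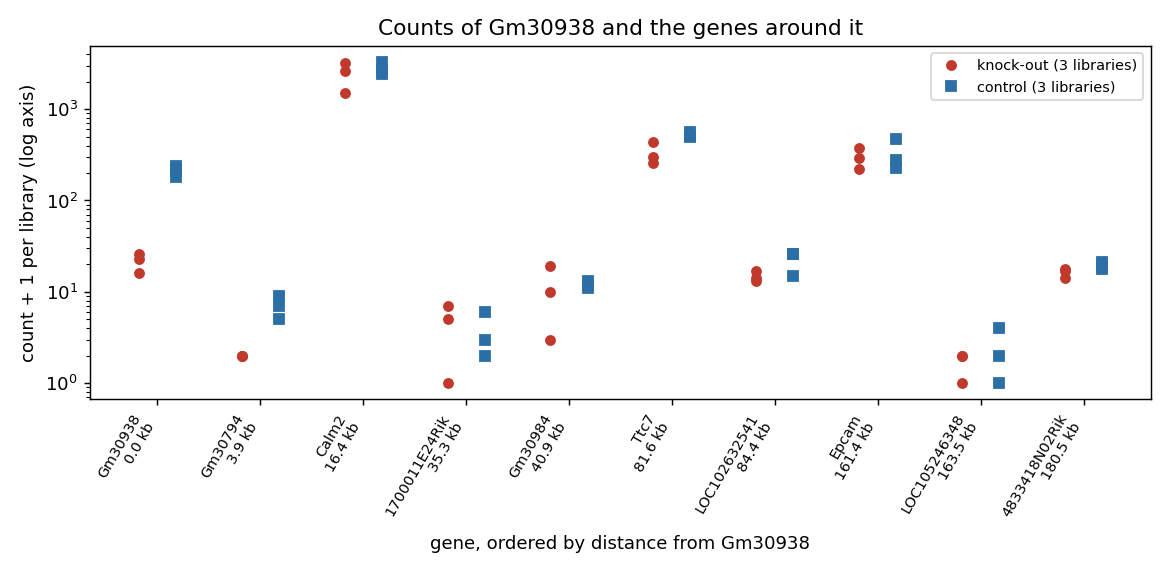
Count plus 1 per library (log axis) of Gm30938 and the 9 other genes within 190 kb, ordered by distance, with knock-out libraries as red circles left of control libraries as blue squares. The knock-out libraries of Gm30938 lie at 15 to 25 counts and its control libraries at 180 to 240, whereas those of Calm2 overlap.

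Among the other members whose groups did not overlap, the ones lowest in knock-out SECs mostly lay opposite a protein-coding gene. The same position was held by 141 of the 200 members, so it was not particular to the lowest ones. None of the lowest ones passed the adjusted threshold. Gm16553 lies opposite Clec4g, a lectin of sinusoidal endothelium, and had 83.8, 127 and 105 CPM in knock-out libraries and 270, 252 and 161 CPM in control libraries. Every knock-out library was below every control library, with a log2 fold change of −1.11 ± 0.25 (adjusted p = 0.125, 0.00246 to 0.364 over the alternatives). Clec4g itself, 1 of the 9 sinusoidal markers, gave −1.03 ± 0.26.
Gm14023, opposite Il1a, which encodes the cytokine interleukin-1 alpha, had 11.9, 21.6 and 17.7 CPM in knock-out libraries and 44.0, 43.3 and 26.8 CPM in control libraries (−1.15 ± 0.29, adjusted p = 0.147). LOC105246491, opposite Smad7, an inhibitor of TGF-beta signalling, had 24.7, 42.3 and 46.4 CPM in knock-out libraries and 83.2, 83.9 and 64.2 CPM in control libraries (−1.03 ± 0.25, adjusted p = 0.147). LOC102637409, opposite Gm4980, gave −1.12 ± 0.31, and LOC105243485, opposite Cd300lg, a receptor of capillary endothelium, gave −0.81 ± 0.28. In each of these the lowest control library still exceeded the highest knock-out library. LOC105243900 (opposite Plekhb2), 5830428H23Rik (opposite Grk5, a kinase that desensitises G protein-coupled receptors) and LOC105242711 (4 bases from Efcc1) completed the 10 lowest besides AW112010, with log2 fold changes of −0.79, −0.75 and −0.78.

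AW112010, a transcript known from activated immune cells in mice, overlaps no gene of the table (chr19:11047612-11050566). It had 15.7, 16.3 and 18.3 CPM in knock-out libraries and 39.2, 27.2 and 39.7 CPM in control libraries. All knock-out libraries were below all control libraries, with a log2 fold change of −1.08 ± 0.18 (adjusted p = 0.0741, 2.0e-04 to 0.280 over the alternatives). Its nearest protein-coding gene, Ms4a8a, 16.9 kb away, was itself barely measured, at 58, 13 and 7 counts in knock-out libraries and 7, 14 and 16 in control libraries. Of the 8 macrophage markers, Lyz2, a lysozyme of myeloid cells (log2 fold change −1.78), and Clec4f, a receptor of Kupffer cells (−2.67), were lower in every knock-out library. This held for 11.7% of all tested genes, and 0 of the 8 markers were called. The other 6 overlapped between the groups, and Marco gave 0.67, being highest in knock-out library 1. Of the 9 RNAs of immune cells found in the table, 6 were tested and all 6 had negative log2 fold changes, with 0 called and 3 (AW112010, Dleu2 and Gm14005) at an unadjusted p below 0.05, beside 8.13% of all tested genes. The other 3, Mirt1, Mirt2 and F630028O10Rik, had 17.8, 21.8 and 29.3 CPM in control library 1, which had the highest neutrophil markers, and 1.23 to 2.18 CPM in the other control libraries. Without control library 1 their log2 fold changes were positive, at 0.91 for Mirt1, 1.45 for Mirt2 and 0.64 for F630028O10Rik, and 0 were called.

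**Figure D3:**
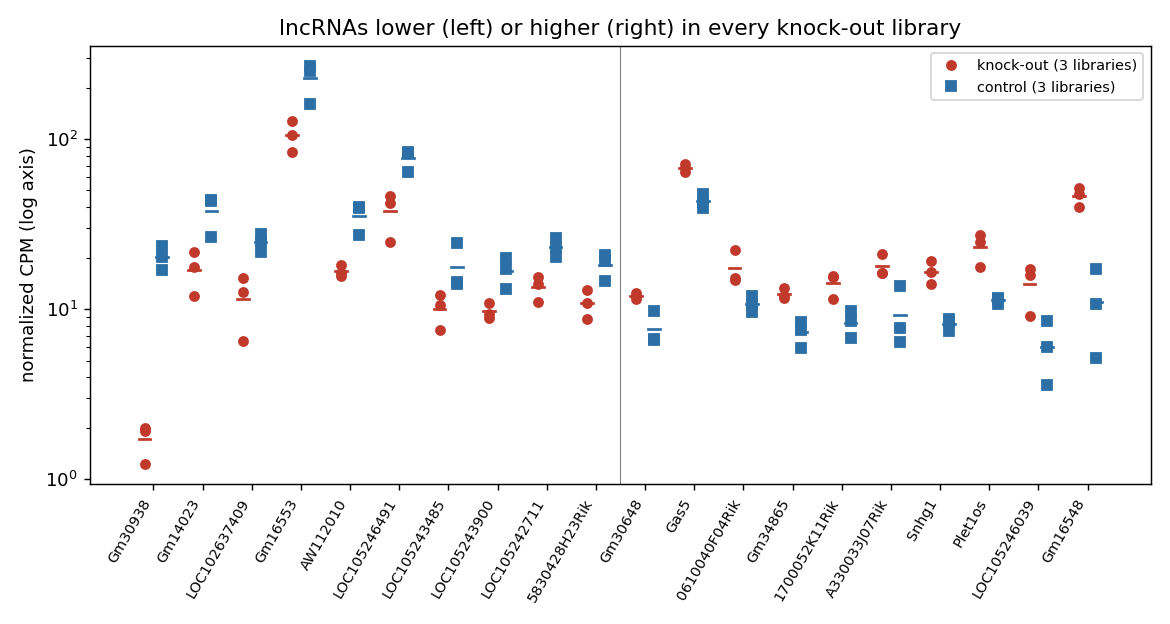
Normalized CPM per library (log axis) of the 10 members with the largest negative (left) and the 10 with the largest positive (right) log2 fold change among those whose groups did not overlap, with knock-out libraries as red circles left of control libraries as blue squares and horizontal lines at the means (n = 3 each). Gm30938 stands at 1.23 to 2.00 CPM in knock-out libraries against 17.1 to 23.6 CPM in control libraries, a wider gap than any other member shown.

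On the higher side, Gm16548 had the largest fold change. It lies opposite Selp, which encodes the leukocyte adhesion molecule P-selectin, and had 51.6, 39.9 and 47.9 CPM in knock-out libraries and 17.3, 5.15 and 10.7 CPM in control libraries. The lowest knock-out library was above the highest control library, with a log2 fold change of 2.08 ± 0.43 (adjusted p = 0.116, 9.8e-05 to 0.340 over the alternatives) beside 2.02 ± 0.38 for Selp. LOC105246039 lies opposite Racgap1, which acts in cytokinesis, and had 9.18, 15.96 and 17.4 CPM in knock-out libraries and 5.97, 8.52 and 3.61 CPM in control libraries (1.23 ± 0.38, adjusted p = 0.196). All 4 cycling cell markers were also higher in every knock-out library than in any control library, beside 13.2% of all tested genes. Their log2 fold changes were 1.07 to 1.47, and 0 were called. A330033J07Rik lies opposite Id4, a helix-loop-helix protein that blocks DNA binding of its partners, and gave 0.94 ± 0.30 beside 1.05 ± 0.22 for Id4. 0610040F04Rik, opposite Bhlhe40, a transcriptional repressor, gave 0.70 ± 0.20 beside 0.72 ± 0.23. Gm34865, on the same strand as Nup210l, gave 0.75 ± 0.18, and Gm30648, 1 of the members that overlap no protein-coding gene and nearest to Cxxc4, gave 0.65 ± 0.20.

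Plet1os and 1700052K11Rik differed from the high members above that lie opposite a gene, in that their own partner gave a much smaller log2 fold change. Plet1os had 17.7, 24.8 and 27.2 CPM in knock-out libraries and 10.8, 11.5 and 11.7 CPM in control libraries, so that the groups did not overlap (1.04 ± 0.18, adjusted p = 0.0828). Plet1, a surface protein of progenitor cells, had 153, 103 and 123 counts in knock-out libraries and 84, 145 and 91 in control libraries, and its groups overlapped (0.092 ± 0.25). 1700052K11Rik had 15.7, 15.4 and 11.5 CPM in knock-out libraries and 8.53, 6.75 and 9.77 CPM in control libraries (0.76 ± 0.20, adjusted p = 0.160), beside 0.12 ± 0.089 for Tlk2, a kinase of chromatin assembly. The differences between these members and their partners were not tested.

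Of 18 tested snoRNA host genes, 13 had positive and 5 negative log2 fold changes, and 0 were called. Transcripts of this family carry snoRNAs, which guide chemical changes of ribosomal RNA, in their introns, and several begin with a run of pyrimidines, the feature known from ribosomal protein mRNAs. The windows from 50 bases before to 50 bases after the annotated start are shown for 4 members, with the run of C and T at the start in capitals: Gas5 at chr1:161035116-161035215 and Snhg1 at chr19:8723437-8723536 (plus strand), Snhg8 at chr3:123508287-123508386 (minus strand) and 2410006H16Rik at chr11:62602827-62602926 (plus strand).
Gas5: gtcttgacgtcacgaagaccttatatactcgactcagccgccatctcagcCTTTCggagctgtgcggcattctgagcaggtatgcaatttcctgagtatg
Snhg1: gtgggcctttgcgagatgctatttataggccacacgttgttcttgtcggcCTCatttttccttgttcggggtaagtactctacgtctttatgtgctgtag
Snhg8: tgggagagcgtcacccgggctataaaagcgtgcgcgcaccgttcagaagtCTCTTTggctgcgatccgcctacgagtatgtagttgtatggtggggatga
2410006H16Rik: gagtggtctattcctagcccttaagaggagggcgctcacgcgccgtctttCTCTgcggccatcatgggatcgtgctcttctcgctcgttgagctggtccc
A start with C followed by at least 3 further pyrimidines was found in 3.76% of the 32851 promoter windows and in 5.88% of the 136 windows of members, and in 3 of the 4 shown here, Snhg1 having a run of 3.

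Snhg1 had 19.2, 14.2 and 16.5 CPM in knock-out libraries and 8.74, 8.44 and 7.49 CPM in control libraries. The groups were clearly apart, with a log2 fold change of 1.01 ± 0.16 (adjusted p = 0.0716, 6.0e-04 to 0.271 over the alternatives). Its start lies 118 bases from that of Slc3a2, a subunit of amino acid transporters transcribed the other way, which gave 0.10 ± 0.11. Gas5 had 67.7, 63.8 and 71.7 CPM in knock-out libraries and 47.7, 42.7 and 39.2 CPM in control libraries (0.65 ± 0.11, adjusted p = 0.0772, 7.2e-04 to 0.287 over the alternatives), again with no overlap. Zbtb37, whose start is 302 bases from that of Gas5 on the other strand, gave −0.038 ± 0.28. Snhg8 had 33.3, 34.3 and 31.9 CPM in knock-out libraries and 24.6, 25.4 and 22.4 CPM in control libraries (0.46 ± 0.10, adjusted p = 0.124). The groups of 2410006H16Rik (0.45 ± 0.22) and Snhg5 (0.30 ± 0.19) overlapped. The 18 tested were among 23 genes of this list found in the table, and their median log2 fold change was 0.45, against −0.029 over all tested genes. Snhg18 (−0.81) and Snhg20 (−0.46) had the most negative values, and Snhg20 was lower in every knock-out library than in any control library. At an unadjusted p below 0.05, 6 were higher, beside 9.39% of all genes, and 0 were lower. The summed level of the list was 246 to 265 CPM in knock-out libraries and 176 to 187 CPM in control libraries.

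The 5 members on the list of nuclear retained RNAs had negative log2 fold changes with overlapping groups, and none was called. Malat1, a very abundant RNA of nuclear speckles, held 15.4% to 18.3% of all members' counts in knock-out libraries and 17.1% to 23.8% in control libraries. Its level was 1271, 1144 and 1054 CPM in knock-out libraries and 1846, 1165 and 1891 CPM in control libraries (−0.50 ± 0.22, adjusted p = 0.307), with control library 2 inside the knock-out range. Neat1, the scaffold of paraspeckles, had 99.6, 86.9 and 65.5 CPM in knock-out libraries and 186, 100.2 and 87.3 CPM in control libraries (−0.57 ± 0.32, adjusted p = 0.412). Tug1 (−0.16), Firre (−0.071, an RNA of the X chromosome whose sign turned to 0.039 with limma-voom and 0.084 without control library 1) and Kcnq1ot1 (−0.40, the imprinted antisense RNA of Kcnq1) overlapped as well. On the list of growth and DNA damage RNAs, 2900097C17Rik is a RefSeq synonym of Norad, an RNA that sequesters Pumilio proteins. 2900097C17Rik had 24.8, 28.6 and 30.6 CPM in knock-out libraries and 33.1, 36.5 and 38.2 CPM in control libraries (−0.36 ± 0.12, adjusted p = 0.220), with no overlap. The imprinted Peg13, among the 10 members with the highest counts, gave 0.14 ± 0.11, while Meg3 and Rian had no count in any library. Pvt1, outside the 200, gave 0.42 with groups that did not overlap.

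Members that host microRNAs were not called. Of 8 tested genes on the list of microRNA hosts, 7 had negative log2 fold changes and 0 were called, and the same count of calls was found for the 3 imprinted, 2 X inactivation and 6 growth and DNA damage RNAs tested. Mir22hg contains miR-22, and Dleu2 contains miR-15a and miR-16. C430049B03Rik, named here for its position over 3 microRNA genes and after its values were seen, contains miR-322, miR-503 and miR-351. The mature sequences from RefSeq are shown, with the seed (bases 2 to 8) in capitals, since hosts on different chromosomes carry the same seed.
mmu-miR-15a-5p: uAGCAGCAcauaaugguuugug
mmu-miR-16-5p: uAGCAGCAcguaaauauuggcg
mmu-miR-322-5p: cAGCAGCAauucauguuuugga
mmu-miR-503-5p: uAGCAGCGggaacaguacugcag
mmu-miR-22-3p: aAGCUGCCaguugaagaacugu
mmu-miR-351-5p: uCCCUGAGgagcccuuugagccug
The seed AGCAGCA was shared by 3 of these 6, from chromosomes 14 and X. Dleu2 had 11.1, 6.88 and 8.13 CPM in knock-out libraries and 13.01, 10.5 and 15.8 CPM in control libraries, with knock-out library 1 inside the control range (−0.59 ± 0.24, adjusted p = 0.282). Mir22hg gave −0.18 ± 0.34 and C430049B03Rik 0.33 ± 0.37. The microRNA genes themselves had few or no counts in these libraries (Mir15a and Mir503 were at 0 in all 6), so the levels of the mature microRNAs were not measured here.

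Most members shared their position with a protein-coding gene. By position and strand, 141 overlapped one on the opposite strand and 20 on the same strand, 11 started within 1 kb of the start of one transcribed in the other direction, 25 had the nearest one within 50 kb, and 3 had none within 50 kb. Among the 159 overlapping pairs with both genes tested, the log2 fold changes of member and neighbour went together, with Pearson's r of 0.81 over 139 opposite-strand pairs (Spearman's rho 0.77) and 0.86 over 20 same-strand pairs (0.62). The member and its partner differed by less than 0.2 in 123 of the 159 pairs. Among the 10 divergent pairs r was 0.060, and among the 22 other pairs within 50 kb it was 0.28. These correlations run across genes measured in the same 6 libraries, so they are given as a description without a p-value.

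**Figure D4:**
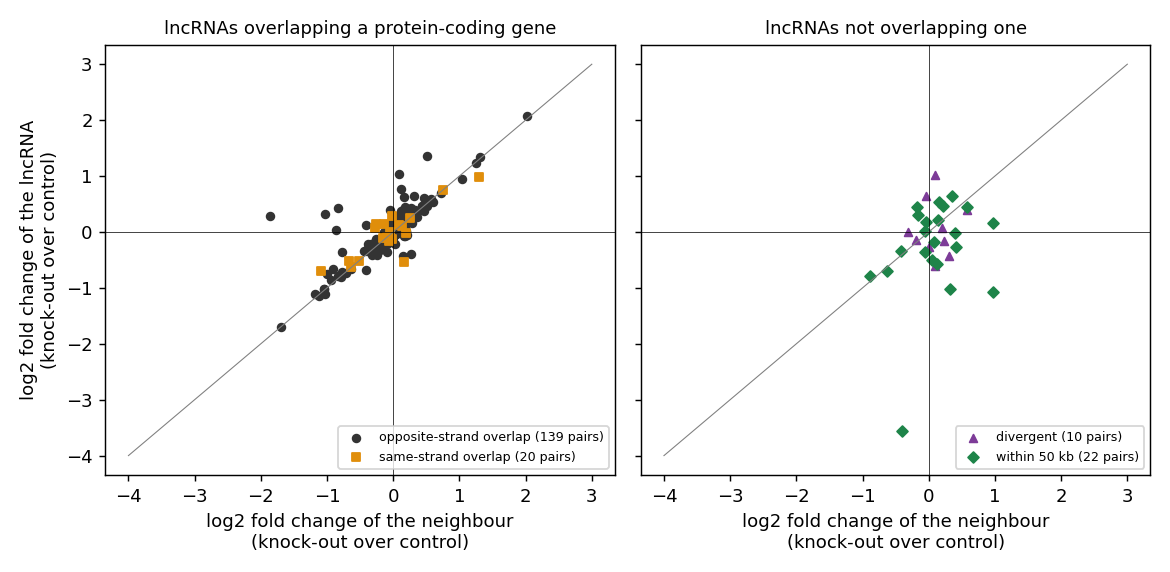
Log2 fold change (knock-out over control) of each lncRNA against that of its nearest protein-coding gene within 50 kb, for members that overlap that gene (left, 159 pairs) and members that do not (right, 32 pairs), with the line of equal values in grey. Overlapping pairs lie along the line (r = 0.81), and the others scatter around it (r = 0.25), with Gm30938 at −3.55 beside Calm2 at −0.41.

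In many overlapping pairs the counts of the lncRNA were a nearly fixed fraction of those of its partner in every library. Gm14023 had 19.6, 18.98 and 20.2 counts per 100 counts of Il1a in knock-out libraries and 19.3, 20.9 and 19.8 in control libraries, where Il1a itself had a log2 fold change of −1.12 ± 0.29 (adjusted p = 0.155, short of the threshold) without overlap between the groups. LOC102637409 had 5.77 to 6.43 counts per 100 of Gm4980 in all 6 libraries, and Gm15441 had 23.1 to 24.5 per 100 of Txnip. Gm16548 had 15.98 to 20.05 per 100 of Selp, LOC105246039 28.7 to 33.6 per 100 of Racgap1, and Gm16553 11.0 to 13.8 per 100 of Clec4g. Over the opposite-strand pairs, the highest library's fraction was 1.31 times the lowest in the median pair, while the member's own level spanned 1.63 times. Over pairs without overlap the corresponding medians were 1.92 and 1.87. Plet1os departed from this, with 127, 294 and 285 counts per 100 of Plet1 in knock-out libraries and 120, 93.8 and 135 in control libraries.

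Exon models of GENCODE release M21 were available for both genes in 60 of the 141 opposite-strand pairs, and in 51 of these the exons overlapped, by a median of 367 bases. In these 51 pairs r was 0.91 (Spearman's rho 0.79) and the median absolute difference of the log2 fold changes was 0.098. In the 8 tested pairs that shared no exon bases r was 0.21 (rho 0.48) and the median difference 0.25. In the 80 tested pairs without exon models for both genes, r was 0.83 (rho 0.78) and the median difference 0.078. Whether those 80 share exons is not known here. With 8 pairs, r can rest on a single pair. A pair with no shared exon bases and a wide span is Gm29682 opposite Cdh5, the endothelial cadherin. Gm29682 had 91.0, 29.4 and 17.4 CPM in knock-out libraries and 34.4, 11.1 and 8.06 CPM in control libraries. Its counts were 0.632 to 3.81 per 100 of Cdh5. In the median pair without shared exon bases, the highest library's fraction was only 1.87 times the lowest. Without the strand of each read, the reads of exon-sharing pairs cannot be told apart, and the values of the 161 members that overlap a protein-coding gene are uncertain to that extent.

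After Malat1 and LOC105246107, the members with the highest summed counts were Gm15441, Gm11747, Gm16553, LOC105246589, LOC105246279, Peg13, LOC105243919 and 0610039K10Rik, of which all but Peg13 lie opposite a protein-coding gene. LOC105246107 varied widely between libraries of the same group. It stands second by summed count and first by level per length, at 346 CPM per kb on average beside 199.8 CPM per kb for Malat1. It had 1602, 5522 and 3279 counts in knock-out libraries and 5341, 1062 and 6689 in control libraries, so both groups span nearly the whole range. Its gene (chr16:35981663-35983129, minus strand) starts 234 bases from Kpna1, a nuclear import receptor, which gave a log2 fold change of 0.097. The 18S ribosomal RNA-related gene Rn18s-rs5 took 1.33%, 3.72% and 2.04% of all counts in knock-out libraries and 5.14%, 0.864% and 6.62% in control libraries. Per 1000 counts of Rn18s-rs5, LOC105246107 had 11.5, 12.0 and 13.1 counts in knock-out libraries and 10.01, 10.9 and 9.12 in control libraries, a span of 1.44 times where the count itself spanned 6.30 times. LOC105245046, a second member with this pattern, chosen after its values were seen, had 1.21 to 1.82 counts per 1000 of Rn18s-rs5, and its own counts spanned 9.17 times. Neither differed between the groups beyond the spread of the libraries (log2 fold change of LOC105246107 −0.60 ± 0.76, adjusted p = 0.711, and of LOC105245046 −1.02 ± 0.80, adjusted p = 0.545). The value of LOC105246107 turned to 0.50 with limma-voom.

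**Figure D5:**
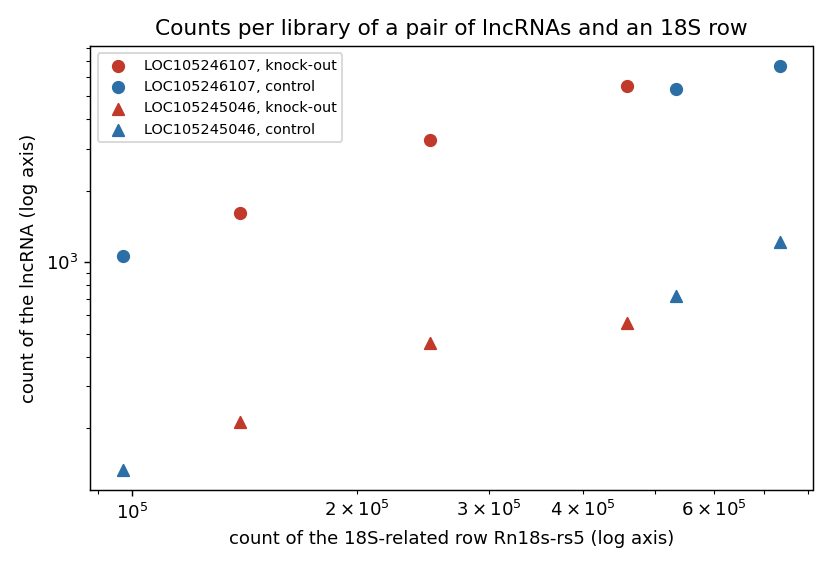
Counts of LOC105246107 (circles) and LOC105245046 (triangles) against those of the 18S-related gene Rn18s-rs5 in each of the 6 libraries (both axes log), knock-out in red and control in blue. Both lncRNAs follow the 18S count across libraries of either group, LOC105246107 with 9.12 to 13.1 counts per 1000.

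Other members with wide spread had partners known from other liver cells, and were picked for that spread after their values were seen. Gm30611, opposite Ahsg, which encodes the hepatocyte plasma protein fetuin-A, had 36.8, 2.86 and 23.2 CPM in knock-out libraries and 6.29, 20.3 and 34.7 CPM in control libraries. Gm10069, opposite Pzp, a protease inhibitor of plasma, had 31.6, 1.31 and 8.44 CPM in knock-out libraries and 2.24, 7.60 and 6.26 CPM in control libraries. The lowest knock-out library in both was library 2, where the 6 hepatocyte markers summed to 187 CPM, against 1553 and 2126 CPM in the other knock-out libraries and 399 to 1814 CPM in control libraries. LOC105243919, opposite the collagen gene Col3a1, had 21.9, 116 and 96.0 CPM in knock-out libraries and 68.0, 120 and 197 CPM in control libraries, where stellate cell markers were lowest in knock-out library 1 (379 CPM) and highest in control library 3 (5610 CPM). LOC105242706, on the strand of Mxd1, a partner of Max, was highest in control library 1 at 65.9 CPM and in knock-out library 1 at 32.9 CPM, the libraries with the most neutrophil marker RNA. None of these members was called. Members opposite 2 other sinusoidal markers gave 0.37 ± 0.26 for Gm32727 (opposite Kdr, a VEGF receptor) and 0.16 ± 0.27 for Gm36318 (opposite Oit3).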

How the data were processed

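RNA sequencing of SECs was analysed in 6 libraries, 3 knock-out and 3 control, grouped by sample title. Total RNA went into standard Illumina libraries, per the labels. According to the submitters' notes, bcl2fastq and TopHat2 (version 2.0.13) were run on build mm10. How reads were counted, with which annotation and whether by strand, is not given in the sources used. The deposited file gives counts as whole numbers without normalization, and RPKM values that the authors derived from them. The RPKM values equalled count over length and library total within 0.1% and were not tested.

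Genes were tested on the counts by edgeR 4.0.16 under R 4.3.3, with its quasi-likelihood test (robust prior, TMM normalization, filterByExpr, group as the term), two-sided, with Benjamini-Hochberg adjustment over all 15404 tested genes and a threshold of 0.05. Levels are CPM after TMM normalization, as mean ± SD, and log2 fold changes are knock-out over control with standard errors. Alternatives were RLE size factors, DESeq2 1.42.0, limma-voom in limma 3.58.1 with sample quality weights, no filter, a stricter filter, library sizes without ribosomal RNA, the replicate number as a block, leaving out each library, and other sets of members or neighbours. The fit was tested on simulated data.

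The members, role lists and marker lists were chosen with earlier results of these data known. Named genes were Rbpj, members past the threshold, the 10 with the highest counts, the 10 largest fold changes in each direction among members whose groups did not overlap, up to 4 per role list by count, Gm30938, and the nearest protein-coding genes. Neighbours were taken from the positions and strands of the table. The window around Gm30938 was set after its genes were seen, and 1 gene beyond it is not reported here. Of the members, 131 matched a RefSeq gene by ID on the same chromosome, which RefSeq types as lncRNA for 121, protein-coding for 9 and pseudogene for 1. A limit of 3 counts corresponds to 0.243 to 0.289 CPM, and such limits cover counting error only.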

Additional observations from a re-analysis of the deposited data

How the results depend on the processing

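The count of lncRNA members called higher was 0 and lower 1 with edgeR. It was 7 higher and 9 lower with DESeq2, 8 higher and 3 lower with limma-voom, 2 and 2 without a filter, and 0 lower with the replicate number as a block or among the 100 members with the highest counts, and 1 higher over all 1228 tested lncRNAs. RLE size factors, the stricter filter and library sizes without ribosomal RNA left 0 and 1. Leaving out each library gave 0 to 1 lower. Whether the replicate numbers pair the libraries is not settled. Deviations from the group means correlated at 0.19, 0.031 and 0.42 between the libraries numbered 1, 2 and 3. Knock-out libraries 1 and 3 correlated best with the control library of their own number, and knock-out library 2 did not. With the replicate block 3 genes of the table were called instead of 30, and Gm30938 had an adjusted p of 0.0508. Over all tested genes, 947 were called with DESeq2, 489 with limma-voom, 176 without a filter, 73 with the stricter filter, 55 with RLE and 53 without ribosomal RNA. The median log2 fold change of 0.011 was −0.056 over all tested lncRNAs and −0.15 over 28 members that overlap no other gene, and leaving out each library gave −0.023 to 0.074. The correlation with neighbours of 0.65 over 191 pairs was 0.25 over 32 pairs without overlap and 0.78 over 179 pairs within 5 kb, and 0.62 to 0.70 when each library was left out. Among 39 named members, 470 of the values under alternatives kept direction and side of the threshold, 24 passed it, 6 lost it (all Gm30938) and 7 changed sign. These 7 were LOC105246107 (0.50 with limma-voom), Gm15441 (0.014 without knock-out replicate 1, −0.17 to 0.014 over the left-out libraries), LOC105246589 (−0.18 without control replicate 3 and −0.11 without knock-out replicate 1, −0.18 to 0.60), Firre (0.039 with limma-voom and 0.084 without control replicate 1, −0.16 to 0.084) and Mir22hg (0.19 without control replicate 1, −0.44 to 0.19). The cause of these shifts was not tested. The lowest members had 647 summed counts, and 3 libraries per group limit every call.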
